A study of Mus musculus with 4 samples.

Results

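Extracellular matrix turnover by macrophages depends on secreted and membrane-bound metalloproteinases and on the proteins that block them. The 10 genes described here, chosen by name, encode 6 matrix metalloproteinases (Mmp3, Mmp8, Mmp9, Mmp12, Mmp13 and Mmp14), the aggrecan- and versican-cleaving protease Adamts1, the metalloproteinase inhibitors Timp1 and Timp2, and Slpi, a secreted inhibitor of serine proteases such as neutrophil elastase. All 10 were found by Ensembl ID among the 37681 genes of each table. They were read by mRNA sequencing in cells from the marrow of C57BL/6 wild-type mice, cultured with 20% supernatant of L929 cells, which supplies M-CSF and drives macrophage growth. The groups were cells with shRNA against lncRNA-COX2 given Pam3Cys4 (100 nM, 5 h), cells with that shRNA left unstimulated, cells without shRNA given Pam3Cys4 at the same dose and time, and cells without shRNA left unstimulated. Pam3Cys4 is a bacterial-type lipopeptide that TLR2 and TLR1 sense together. Each of the 4 groups was 1 library, so intervals cover counting error only and no difference could be set against replicates. The labels call the cells of the last 2 groups only "No shRNA"; an "EV" in their titles is unexplained, so whether they carried a control construct is unknown. The level of lncRNA-COX2 was not analysed here.

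Metalloproteinases are made as inactive proenzymes, are activated by removal of a propeptide, and are held in check by TIMP proteins that bind the active site. In macrophages, inflammatory signals raise the transcription of several of them, and AP-1 sites near the start are a known feature of the Mmp3 and Mmp13 promoters. Most secreted MMP genes lie side by side in a cluster, which in the mouse is on chromosome 9.

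The libraries held 59400238 gene reads with shRNA and Pam3Cys4, 65826838 with shRNA unstimulated, 51979051 without shRNA and with Pam3Cys4, and 47385277 without shRNA unstimulated. Macrophage markers summed to 6117 to 8776 CPM (counts per 1000000 gene reads, with libraries scaled by TMM factors), with 10 or 11 of 12 markers at 5 CPM or more. Single markers differed between shRNA states in both directions. Mrc1 was 15.9-fold and 17.5-fold lower with shRNA (Pam3Cys4, unstimulated), and Mertk 7.36-fold and 7.90-fold higher. After Pam3Cys4 Fcgr1 was 4.12-fold higher with shRNA and Itgam 2.02-fold lower. Of 14 granulocyte markers, which matter here because neutrophil granules hold Mmp8 and Mmp9 proteins, Elane, Ltf, Ly6g, Ngp, Retnlg and S100a9 had 0 counts in all 4 libraries. Their list summed to 88.0 and 0.645 CPM with shRNA (Pam3Cys4, unstimulated) and to 79.4 and 8.38 CPM without. Lcn2, which macrophages also make, gave 86.8 CPM with shRNA and 70.1 CPM without among the Pam3Cys4 libraries. Cebpe, a factor of granulocyte development and the other measured marker of that list, had 6 and 10 counts with shRNA (Pam3Cys4, unstimulated), against 444 and 412 without. Of 12 stromal markers, Col1a2, Col3a1, Cxcl12, Pdgfra, Postn and Thy1 had 0 counts in all 4 libraries, and the list summed to 1.97 to 6.59 CPM. The dendritic cell list summed to 3.30 and 0.585 CPM with shRNA (Pam3Cys4, unstimulated), against 26.7 and 7.02 CPM without, with Itgax the leading gene in each library (24.8 CPM without shRNA after Pam3Cys4), and the osteoclast list to 162 and 232 CPM against 81.8 and 153 CPM. The endothelial list summed to 32.8 to 67.9 CPM, mostly Vwf, the T cell list to 1.11 to 8.44 CPM, mostly Lck, and the B cell and mast cell lists to at most 0.345 CPM. The libraries with shRNA carried reads of the Y-linked genes Ddx3y (1116 counts after Pam3Cys4, 921 unstimulated), Kdm5d (665, 730) and Uty (334, 320). Those without shRNA had at most 4 counts of each, while Eif2s3y, also Y-linked, had 0 counts with shRNA and 6 (Pam3Cys4) and 3 (unstimulated) without. Xist had at most 2 counts in any library. Effects of the shRNA and of a different source of cells therefore cannot be told apart in any shRNA comparison below.

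The 300 bases around the start of 4 cluster genes are shown first, because all 4 were at least 2-fold higher after Pam3Cys4 without shRNA. Sequences run from 250 bases before to 50 bases after the start in RefSeq on GRCm38.p6, 5′ to 3′ on the gene's strand, in lower case with AP-1 letters (TGANTCA, both strands, which are the same pattern) in capitals. The windows are chr9:7445572-7445871 (plus strand) for Mmp3, chr9:7272264-7272563 (plus) for Mmp13, chr9:7347124-7347423 (plus) for Mmp12 and chr9:7558179-7558478 (plus) for Mmp8. For Mmp12 the second of 2 starts in the table is shown, which held AP-1 letters, while the first held none.
Mmp3: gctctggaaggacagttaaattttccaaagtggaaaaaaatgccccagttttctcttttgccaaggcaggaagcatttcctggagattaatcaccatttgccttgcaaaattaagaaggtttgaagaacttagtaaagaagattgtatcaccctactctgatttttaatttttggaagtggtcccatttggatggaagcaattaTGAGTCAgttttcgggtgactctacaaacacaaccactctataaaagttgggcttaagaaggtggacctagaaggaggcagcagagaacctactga
Mmp13: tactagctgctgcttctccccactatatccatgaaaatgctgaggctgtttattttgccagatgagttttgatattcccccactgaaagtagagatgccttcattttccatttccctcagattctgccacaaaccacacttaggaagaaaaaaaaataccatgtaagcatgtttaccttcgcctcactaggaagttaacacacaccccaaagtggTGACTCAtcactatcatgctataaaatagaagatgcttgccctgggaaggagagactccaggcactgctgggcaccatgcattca
Mmp12: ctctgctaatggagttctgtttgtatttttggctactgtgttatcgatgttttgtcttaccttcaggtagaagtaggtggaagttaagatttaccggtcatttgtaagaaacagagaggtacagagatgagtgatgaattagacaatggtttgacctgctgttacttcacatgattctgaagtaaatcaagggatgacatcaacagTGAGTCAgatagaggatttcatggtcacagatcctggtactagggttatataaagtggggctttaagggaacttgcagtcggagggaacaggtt
Mmp8: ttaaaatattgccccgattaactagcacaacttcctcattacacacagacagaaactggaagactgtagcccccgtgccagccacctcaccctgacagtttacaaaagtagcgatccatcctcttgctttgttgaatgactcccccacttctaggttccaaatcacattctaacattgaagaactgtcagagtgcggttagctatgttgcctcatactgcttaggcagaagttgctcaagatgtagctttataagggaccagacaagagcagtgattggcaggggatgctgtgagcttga

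The AP-1 letters began 46 bases before the start in Mmp3, 35 bases before it in Mmp13 and 44 bases before it in Mmp12. None were present in the Mmp8 window. Of 9 members with an entry in the table, these 3 held the motif. Mmp9 had no entry, so it was not searched for this motif or for those that follow. By window this was 3 of 10 member windows, beside 7.81% of all 32851 promoter windows. On either strand, the NF-kB consensus was found in 1 member, at the first Mmp12 start (8.46% of all windows). The interferon-stimulated response element consensus was found in 1, Mmp13 (3.44%). The ETS letters AGGAAG were found in 6, namely Mmp3, Mmp8, Mmp12, Mmp13, Mmp14 and Timp1 (35.4%), for Mmp12 only at the first start, which is not shown. A match describes the letters of a window and is not evidence of binding.

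A second set is Slpi and Adamts1, shown because their transcripts were read almost only in opposite shRNA states. Their windows are chr2:164356458-164356757 (minus strand) and chr16:85803064-85803363 (minus strand), and neither held any of the 4 motifs.
Slpi: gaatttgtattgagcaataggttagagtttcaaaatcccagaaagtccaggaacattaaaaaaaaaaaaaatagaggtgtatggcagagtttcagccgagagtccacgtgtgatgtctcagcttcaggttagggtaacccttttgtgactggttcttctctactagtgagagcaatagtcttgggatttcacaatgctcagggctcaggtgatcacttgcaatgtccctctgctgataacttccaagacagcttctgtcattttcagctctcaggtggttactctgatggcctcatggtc
Adamts1: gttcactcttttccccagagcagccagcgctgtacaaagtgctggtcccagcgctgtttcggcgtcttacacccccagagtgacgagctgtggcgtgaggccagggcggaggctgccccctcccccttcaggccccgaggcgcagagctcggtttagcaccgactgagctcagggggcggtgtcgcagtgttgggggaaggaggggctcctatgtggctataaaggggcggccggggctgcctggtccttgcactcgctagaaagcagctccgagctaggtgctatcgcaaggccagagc

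In what follows, a stimulation fold compares Pam3Cys4 with unstimulated cells of the same shRNA state, and an shRNA fold compares cells with and without shRNA under the same stimulation. After Pam3Cys4, Mmp9, Mmp12 and Mmp13 were higher in both shRNA states, and Mmp3, Mmp8 and Slpi were higher without shRNA. Without shRNA, 6 of the 10 reached a fold of 2 with an interval off 1 (Mmp3, Mmp8, Mmp9, Mmp12, Mmp13 and Slpi), beside 7.07% of all measured genes, and none was lower, beside 6.51%. With shRNA, 3 were higher (Mmp9, Mmp12 and Mmp13; 6.3% of measured genes) and Timp2 was lower (3.53%). A gene counted as measured at 5 CPM or more in the higher library, which 7 of the 10 genes reached without shRNA and 5 with it. Mmp3 and Mmp8 reached 5 CPM only in the Pam3Cys4 library without shRNA and Mmp13 only in the Pam3Cys4 libraries, so these 3 genes had to differ to be measured. In such bulk samples, fewer cells with a transcript and less of it per cell cannot be told apart.

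**Figure D1:**
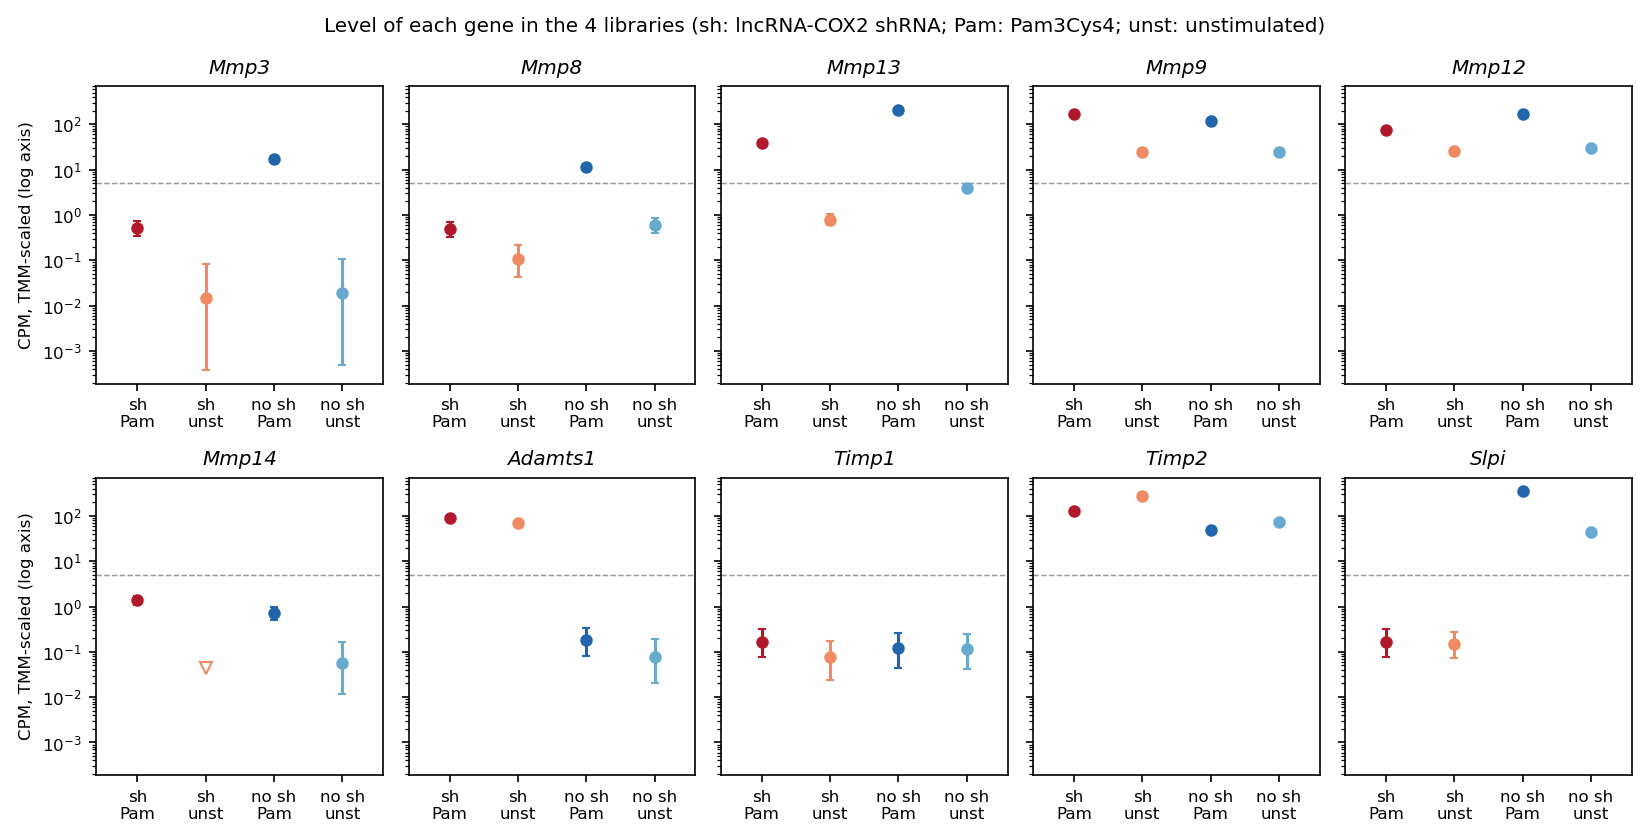
Level of each gene in CPM on a log axis, 1 point per library with its 95% Poisson interval; the dashed line is 5 CPM and the open triangle, for Mmp14, marks 0 counts, drawn at the floor of 3 counts. Mmp13 was highest without shRNA after Pam3Cys4 (207 CPM), Adamts1 was near absent in both libraries without shRNA, and Slpi was near absent in both libraries with shRNA.

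The collagenases cut fibrillar collagen. Mmp13 (ENSMUSG00000050578, chromosome 9), collagenase-3, had 38.9 CPM after Pam3Cys4 and 0.795 CPM unstimulated with shRNA, against 207 CPM after Pam3Cys4 and 3.97 CPM unstimulated without it. The stimulated libraries were thus the high ones in each shRNA state, and each library with shRNA was below its counterpart without. Its stimulation fold was 48.9 in cells with shRNA (interval 37.3 to 65.5) and 52.1 in cells without (45.4 to 60.1). Relative to cells without shRNA, cells with it were 5.32-fold lower after Pam3Cys4 (5.08 to 5.58) and 4.99-fold lower unstimulated (3.68 to 6.88). The unstimulated value rests on 53 counts with shRNA and 207 without, both under 5 CPM. The stimulation fold with shRNA over that without was 0.938 (0.692 to 1.27), so the folds differed by less than counting error. Of the 4 genes for which this ratio could be computed (Mmp9, Mmp12, Mmp13 and Timp2), 0 reached 2-fold in either direction, beside 1.94% of genes larger and 1.64% smaller with shRNA.

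Mmp8 (ENSMUSG00000005800, chromosome 9), the neutrophil collagenase, was read at a lower level. It had 27 counts after Pam3Cys4 and 7 unstimulated with shRNA, against 588 and 31 without shRNA. Only the Pam3Cys4 library without shRNA exceeded 5 CPM (11.6 CPM). There it was 19.6-fold higher than in unstimulated cells (13.6 to 29.1), and with shRNA 4.68-fold higher (1.99 to 12.7) at 0.492 and 0.105 CPM. After Pam3Cys4 it was 23.7-fold lower with shRNA than without (16.1 to 36.2), and in unstimulated cells 5.66-fold lower (2.45 to 15.2). The granulocyte markers did not move in 1 direction with shRNA. Cebpe was lower, as given above, and Cxcr2 had 0 counts with shRNA and 5 without after Pam3Cys4. In the same libraries Lcn2 had 4766 counts with shRNA and 3539 without, Camp 28 and 12, S100a8 20 and 5, and Prtn3 11 and 4. The part of such cells was not tested. Mmp10, a neighbour of Mmp8 and a stromelysin that is not among the 10 genes, had a similar profile, as given below.

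Mmp3 (ENSMUSG00000043613, chromosome 9), stromelysin-1, which cleaves many matrix proteins and activates other proMMPs, had the largest stimulation fold of the 10 genes without shRNA. It had 28 counts after Pam3Cys4 and 1 unstimulated with shRNA, against 880 and 1 without. The unstimulated libraries were alike at 1 count each, and the stimulated ones were far apart. The stimulation fold was 34.0 with shRNA (5.62 to 1389.7) and 908 without (163 to 35906), intervals that are wide because of the single counts. After Pam3Cys4 Mmp3 was 34.2-fold lower with shRNA than without (23.5 to 51.7), at 0.510 CPM with shRNA against 17.4 CPM without.

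Among the gelatinase and elastase genes the shRNA states were closer. Mmp9 (ENSMUSG00000017737, chromosome 2), gelatinase B, had 173 CPM after Pam3Cys4 and 24.9 CPM unstimulated with shRNA, against 117 CPM and 25.1 CPM without. The unstimulated levels differed by less than counting error (1.01-fold lower with shRNA, 0.936 to 1.08), and after Pam3Cys4 Mmp9 was 1.48-fold higher with shRNA (1.43 to 1.53), short of 2-fold. Its stimulation fold was 6.96 with shRNA (6.61 to 7.34) and 4.67 without (4.40 to 4.96), and the ratio of these folds was 1.49 (1.38 to 1.61).

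Mmp12 (ENSMUSG00000049723, chromosome 9), macrophage elastase, had 75.8 CPM after Pam3Cys4 and 25.5 CPM unstimulated with shRNA, against 172 CPM and 30.4 CPM without. The order of the libraries was the same as for Mmp13, over a smaller range. Its stimulation fold was 2.98 with shRNA (2.81 to 3.15) and 5.66 without (5.37 to 5.98). Relative to cells without shRNA it was 2.27-fold lower after Pam3Cys4 (2.19 to 2.35) and 1.19-fold lower unstimulated (1.11 to 1.28). The ratio of the stimulation folds was 0.526 (0.486 to 0.568), short of 2-fold. In the annotation used for names, Mmp12 shares 157 exon bases with Mmp1b on the other strand, and Mmp1b had 9 counts at most in any library.

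Mmp14 (ENSMUSG00000000957, chromosome 14), the membrane-type protease that activates proMMP2, was near the detection limit. It had 75 counts after Pam3Cys4 and 0 unstimulated with shRNA, against 36 and 3 without. With 0 counts set to the floor of 3, it was 30.3-fold higher in stimulated than in unstimulated cells with shRNA (interval from 24.1, unbounded above). Without shRNA it was 12.4-fold higher (3.91 to 62.8). Its highest level was 1.37 CPM, so it entered no count of called genes. After Pam3Cys4 it was 1.92-fold higher with shRNA than without (1.27 to 2.94).

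**Figure D2:**
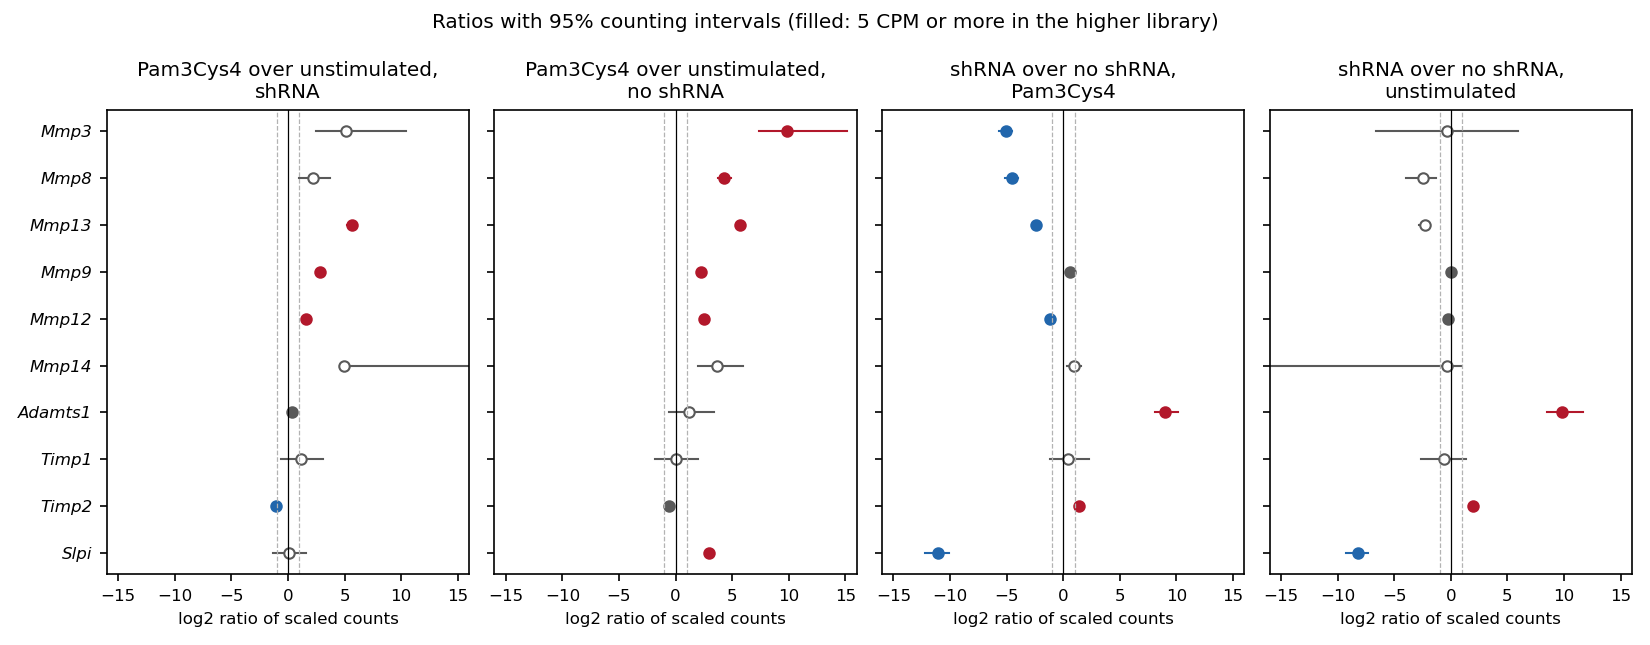
Log2 ratio of scaled counts for each gene in the 4 comparisons, with 95% counting intervals; filled points reached 5 CPM in the higher library and are red or blue where at least 2-fold higher or lower, intervals of Mmp14 that run to the edge are unbounded, and dashed lines mark 2-fold. Adamts1 and Slpi lie farthest from 0 in the shRNA comparisons, at log2 9.0 and -11.05 after Pam3Cys4 and at log2 9.82 and -8.22 in unstimulated cells.

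Between shRNA states, Adamts1 and Slpi stood at opposite extremes, and the 4 cluster genes among the 10 were lower with shRNA after Pam3Cys4. In the Pam3Cys4 libraries, 2 of the 10 were higher by 2-fold or more with shRNA (Adamts1 and Timp2, beside 9.0% of all measured genes) and 5 were lower (Mmp3, Mmp8, Mmp12, Mmp13 and Slpi, beside 5.58%). In unstimulated cells 2 were higher (Adamts1 and Timp2, beside 7.0%) and 1 was lower (Slpi, beside 4.82%). The measured genes numbered 8 of the 10 after Pam3Cys4 and 5 in unstimulated cells. Mmp3, Mmp8 and Slpi passed 5 CPM only without shRNA and Adamts1 only with it, so these 4 also had to differ to be measured. The sum of the dendritic cell list was also lower with shRNA after Pam3Cys4 (3.30 CPM with shRNA and 26.7 CPM without). Most of this was Itgax (1.62 CPM with shRNA and 24.8 CPM without). Zbtb46 was lower too (11 counts with shRNA, 54 without), while Xcr1 was higher (80 counts with shRNA, 35 without). The part of such cells in these results was not tested.

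Adamts1 (ENSMUSG00000022893, chromosome 16) had 5012 counts after Pam3Cys4 and 4630 unstimulated with shRNA, against 9 and 4 without. The shRNA states did not overlap, at 91.3 and 69.5 CPM against 0.178 and 0.0767 CPM. Relative to cells without shRNA it was 512-fold higher after Pam3Cys4 (270 to 1121) and 906-fold higher in unstimulated cells (353 to 3325). Its stimulation fold was 1.31 with shRNA (1.26 to 1.37), short of 2-fold, and 2.32 without, with an interval that included 1 (0.648 to 10.3). Adamts5, the related aggrecanase that lies next to it on chromosome 16, had 0 counts in all 4 libraries, as did Cyyr1 on the other side, and App, the gene beyond Cyyr1, was 1.12-fold higher with shRNA after Pam3Cys4 and 1.26-fold higher in unstimulated cells.

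Slpi (ENSMUSG00000017002, chromosome 2) showed the opposite pattern, with 9 counts after Pam3Cys4 and 10 unstimulated with shRNA, against 17612 and 2339 without. Its level without shRNA was 349 CPM after Pam3Cys4 and 44.9 CPM unstimulated, and it was at most 0.164 CPM with shRNA. After Pam3Cys4 it was 2126-fold lower with shRNA than without (1119.9 to 4651), and 299-fold lower in unstimulated cells (162 to 624). Its stimulation fold was 1.09 with shRNA, on 9 and 10 counts and with an interval that included 1 (0.393 to 2.99), and 7.77 without (7.44 to 8.12). The nearest protein-coding genes were near absent or moved little with shRNA. Matn4 had 1 to 6 counts in the 4 libraries, and Sdc4, 3 genes away, was lower with shRNA by 1.15-fold after Pam3Cys4 and 1.03-fold in unstimulated cells.

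Genes read in 1 shRNA state were few. With at least 5 CPM in both libraries of a state and at most 10 counts in both of the other, 21 of 8976 genes were read with shRNA only, which is 0.234%, and 34 of 8854 without shRNA only, which is 0.384%. Adamts1 was the only gene of the 10 and of the wider protease lists in the first set, and Slpi the only such gene in the second. This definition was chosen after their values were seen. The Y-linked gene Kdm5d, with 665 and 730 counts with shRNA against 1 and 0 without, belonged to the first set too. The part of a different source of cells in these patterns was not tested.

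Timp2 (ENSMUSG00000017466, chromosome 11), which inhibits MMPs and also takes part in proMMP2 activation by Mmp14, had 129 CPM after Pam3Cys4 and 275 CPM unstimulated with shRNA, against 49.2 CPM and 71.8 CPM without. Both libraries with shRNA were above both without, and both stimulated libraries were below their unstimulated ones. It was 2.63-fold higher with shRNA after Pam3Cys4 (2.51 to 2.75) and 3.83-fold higher in unstimulated cells (3.70 to 3.97). Stimulated cells were 2.13-fold lower than unstimulated cells with shRNA (2.07 to 2.19) and 1.46-fold lower without (1.39 to 1.54). The ratio of these stimulation ratios was 0.686 (0.648 to 0.727).

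Timp1 (ENSMUSG00000001131, chromosome X), an inhibitor induced in many cell types by inflammatory signals, had 9 and 5 counts with shRNA (Pam3Cys4, unstimulated) and 6 and 6 without. None of the 4 libraries exceeded 0.164 CPM, every ratio interval included 1, and no difference was detectable at this depth. In the annotation Timp1 lies within Syn1 on the other strand and shares no exon bases with it, and Syn1 had 632 to 2320 counts.

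**Figure D3:**
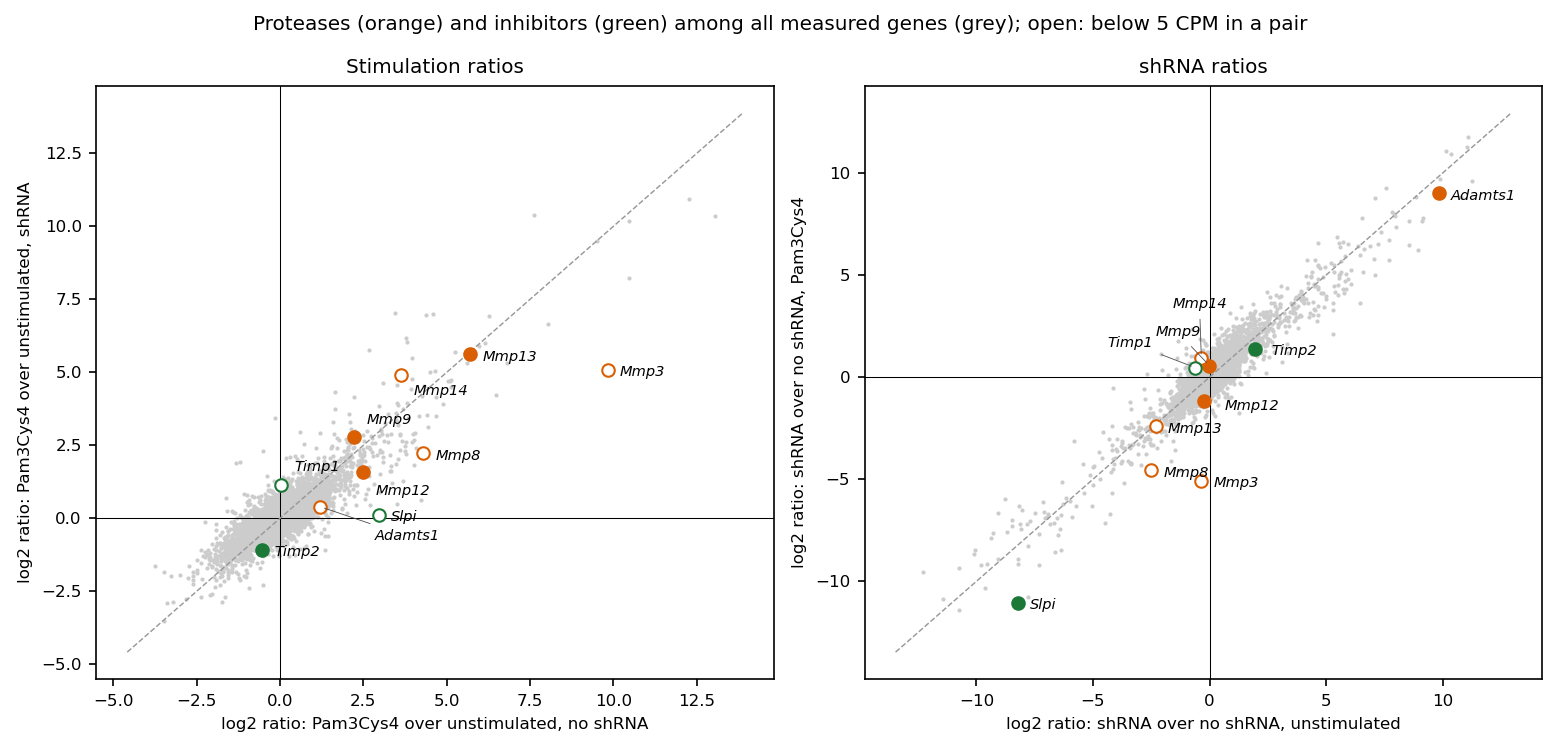
Log2 ratios of the 10 genes among all genes measured in both pairs (grey; proteases orange, inhibitors green), with the stimulation ratios of both shRNA states on the left and the shRNA ratios of both stimulation states on the right; no library is shared between the axes of a panel, open points were below 5 CPM in at least 1 pair, and the dashed line marks equal ratios. Mmp13 lies on the line in the stimulation panel, Mmp3, Mmp8 and Slpi lie below it, and Adamts1 and Slpi lie at opposite ends of the shRNA panel.

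Levels can be compared between genes only per length, here as CPM per kb of merged annotated exons. With shRNA the order after Pam3Cys4 was Mmp9 (49.0 CPM per kb), Timp2 (33.2), Adamts1 (17.2), Mmp13 (14.6) and Mmp12 (10.5). In unstimulated cells with shRNA it was Timp2 (70.6 CPM per kb), Adamts1 (13.1), Mmp9 (7.03) and Mmp12 (3.52). Without shRNA after Pam3Cys4 it was Slpi (295 CPM per kb), Mmp13 (77.4), Mmp9 (33.1), Mmp12 (23.8) and Timp2 (12.6), and unstimulated Slpi (38.0), Timp2 (18.4), Mmp9 (7.08) and Mmp12 (4.20). The members not named in each order were below 10 CPM per kb after Pam3Cys4 and below 1.5 CPM per kb in unstimulated cells.

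The composition of the MMP transcripts differed between the groups. Summed per kb, the 6 MMP genes reached 74.7 CPM per kb after Pam3Cys4 and 10.9 unstimulated with shRNA, against 149 and 13.0 without. With shRNA, Mmp9 gave 65.5% of the sum after Pam3Cys4 and 64.5% unstimulated, and Mmp13 gave 19.5% of the sum after Pam3Cys4. Without shRNA, Mmp13 gave 52.0% of the sum after Pam3Cys4, while Mmp9 gave 54.3% unstimulated. Over the summed level of Timp1 and Timp2, nearly all of it Timp2, the MMP sum was 2.24 after Pam3Cys4 and 0.154 unstimulated with shRNA, against 11.7 and 0.702 without. These ratios describe transcripts, and protein and enzyme activity were not measured.

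The additive fit over the 4 libraries was the only test with error left over. For each factor it uses the 2 states of the other as repeats. Spread between cultures is therefore outside its p-values, and any interaction adds to its error. In edgeR's quasi-likelihood test with Benjamini-Hochberg adjustment over 9559 genes, 6 of the 10 genes were tested, those with 5 CPM in at least 2 libraries. Adamts1 passed this filter only through the 2 libraries with shRNA and Slpi only through the 2 without. Both had to differ between shRNA states to be tested, so their shRNA p-values rest on genes chosen in part by that difference. Mmp13 passed only through the 2 Pam3Cys4 libraries, so it had to differ with stimulation to be tested. Its stimulation p-value has the same limit. With stimulation Mmp13 rose (log2 5.66, standard error 0.15, adjusted p 0.000973), as did Mmp9 (2.51, 0.19, adjusted p 0.00459), Mmp12 (2.04, 0.25, adjusted p 0.012) and Slpi (2.65, 0.48, adjusted p 0.0251), beside 11.9% of tested genes. In DESeq2 with the same design 3 of these 4 rose, and Slpi did not pass. Timp2 fell (log2 -0.82, standard error 0.17, adjusted p 0.0322), beside 10.9%. With shRNA, Adamts1 rose (log2 9.29, standard error 0.24, adjusted p 0.000415) and Timp2 rose (1.67, 0.17, adjusted p 0.00464), beside 12.3% of tested genes. Slpi fell (log2 -9.96, standard error 0.57, adjusted p 0.000932) and Mmp13 fell (-2.38, 0.14, adjusted p 0.00099), beside 8.66%. For the shRNA effect Mmp9 and Mmp12 did not pass (adjusted p 0.307 and 0.106 in the same edgeR test), though Mmp12 fell, as 1 of 3 genes in place of 2, with library totals as scaling and in DESeq2 with the same design. Neither did Adamts1 pass for stimulation (adjusted p 0.142 in the edgeR test). Slpi was higher after Pam3Cys4 only on the counts without shRNA, and its ratio with shRNA rests on 9 and 10 counts.

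The MMP cluster on chromosome 9 holds 10 MMP genes in the order Mmp13, Mmp12, Mmp1b, Mmp3, Mmp1a, Mmp10, Mmp8, Mmp27, Mmp20 and Mmp7 in RefSeq. Mmp10, stromelysin-2, had 39 counts after Pam3Cys4 and 6 unstimulated with shRNA, against 355 and 28 without. Its stimulation fold was 7.89 with shRNA (3.32 to 22.8), under 5 CPM, and 13.1 without (8.90 to 20.0), and after Pam3Cys4 it was 9.89-fold lower with shRNA than without (7.09 to 14.1). Mmp1a and Mmp1b had reads nearly only without shRNA after Pam3Cys4, 7 and 9 counts. Mmp20 and Mmp7 had 0 counts in all 4 libraries. The next genes beyond Mmp13, Dcun1d5 and Dync2h1, were 1.30-fold and 1.76-fold lower with shRNA after Pam3Cys4, where Mmp13 was 5.32-fold lower, and 1.86-fold and 1.13-fold higher after Pam3Cys4 than unstimulated among cells without shRNA. In unstimulated cells Dync2h1 was 2.20-fold lower with shRNA.

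**Figure D4:**
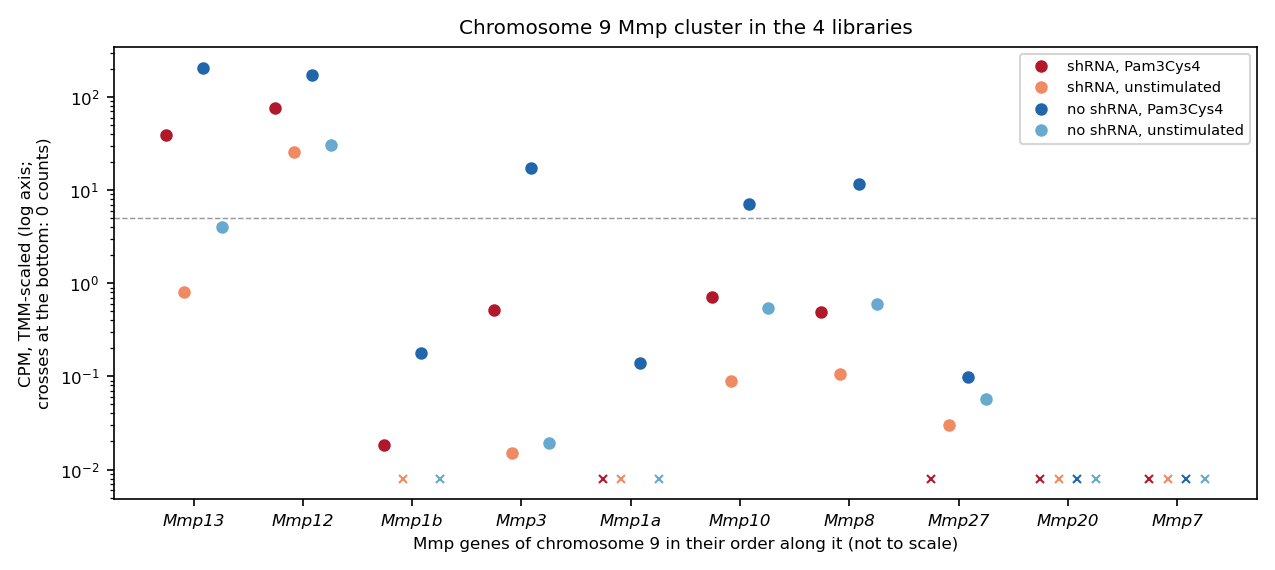
CPM of the 10 MMP genes of chromosome 9, in their order along it and not to scale, in each of the 4 libraries on a log axis; crosses at the bottom mark 0 counts and the dashed line is 5 CPM. Without shRNA after Pam3Cys4, Mmp13, Mmp12, Mmp3, Mmp10 and Mmp8 exceed 5 CPM and are above their levels in the other 3 libraries, and Mmp20 and Mmp7 are at 0.

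Outside the cluster, neighbours of Mmp9 on chromosome 2 differed from each other. Zfp335, the protein-coding gene before it, had a stimulation fold of 1.22 with shRNA and 1.07 without. Cd40, a co-stimulatory receptor gene 3 genes away and named because of its values, was higher after Pam3Cys4 in both shRNA states, as was Mmp9. Cd40 had a stimulation fold of 54.1 with shRNA and 6.34 without. Relative to cells without shRNA it was 3.36-fold higher after Pam3Cys4 and 2.53-fold lower in unstimulated cells.

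Genes with the most similar profiles over the 4 libraries were found by Euclidean distance between log2 CPM values centred on each gene's mean, in log2 units, among 9907 genes. Nearest to Mmp13 were Cd69 (0.819), Cemip (0.948) and Ptgs2, which encodes COX-2 (0.952). Nearest to Mmp3 were the cytokine signalling inhibitor gene Cish (1.82), Csf2 (2.004) and Lif (2.06), and nearest to Mmp8 were Lix1 (0.29), Slc6a4 (0.559) and Wnt6 (0.799). The closest to Mmp9 were Sod2 (0.279), Nfkbia (0.311) and Rab11fip1 (0.346), and to Mmp12 Rffl (0.166), Dusp5 (0.235) and Fosl2 (0.238). Timp2 was closest to Tbc1d2 (0.201), C77080 (0.213) and Slc6a8 (0.303), Slpi to Map1b (1.35) and Cers4 (1.54), and Adamts1 to the Y-linked gene Kdm5d (0.498), Tbx20 (0.833) and Fgfr1 (1.22). With 4 points per gene such likeness is a description only.

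Among the other genes of the protease system, plasminogen activation comes first. Plasmin, made from plasminogen by urokinase (Plau), degrades fibrin and activates proMMPs. Of 12 genes, 2 of 6 measured were higher and 1 lower after Pam3Cys4 with shRNA, beside 6.3% and 3.53% of all measured genes, and 3 of 8 were higher and 2 lower without, beside 7.07% and 6.51%. Relative to cells without shRNA, 3 of 7 were lower and none higher, both after Pam3Cys4 (beside 5.58% lower and 9.0% higher, median log2 ratio -0.30, against 0.05 for all measured genes) and in unstimulated cells (beside 4.82% and 7.0%, -0.15 against 0.02). Plau had 85.4 CPM after Pam3Cys4 and 209 CPM unstimulated with shRNA, against 474 CPM and 1621 CPM without, and was thus lower with shRNA, by 5.55-fold after Pam3Cys4 and 7.74-fold unstimulated. Its receptor gene Plaur had 212 and 23.1 CPM with shRNA (Pam3Cys4, unstimulated) against 544 and 46.5 CPM without. Serpinb2, the inhibitor PAI-2, had 47 and 1 counts with shRNA against 3747 and 37 without, and after Pam3Cys4 it was 86.6-fold lower with shRNA than without. In the edgeR additive test 3 of 6 genes rose and 1 fell with stimulation (beside 11.9% and 10.9% of tested genes). With shRNA 2 fell and 0 rose (beside 8.66% and 12.3%).

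The cathepsins are lysosomal proteases that macrophages can also secrete. Of 12 measured, 2 were higher (beside 9.0% of all measured genes) and 2 lower (5.58%) with shRNA after Pam3Cys4, with a median log2 ratio of 0.24 against 0.05 for all measured genes, and again 2 and 2 in unstimulated cells (beside 7.0% and 4.82%, median 0.40 against 0.02). Ctsk, a collagen-degrading enzyme prominent in osteoclasts, was 5.36-fold higher with shRNA after Pam3Cys4 and 6.09-fold higher unstimulated, beside the osteoclast list given above, of which Ctsk is a member. That list did not move as 1. Of its 5 measured genes, 3 were higher and 1 lower with shRNA after Pam3Cys4 (beside 9.0% and 5.58% of all measured genes). In unstimulated cells 2 were higher and 1 lower (beside 7.0% and 4.82%). Atp6v0d2, like Ctsk, was higher with shRNA, by 2.90-fold among Pam3Cys4 libraries and 5.27-fold among unstimulated ones. Dcstamp, which osteoclasts need to fuse, was 27.9-fold and 35.1-fold lower in the same comparisons, and Ocstamp was 1.93-fold and 1.76-fold lower. The part of such cells was not tested. Ctsh was 20.8-fold and 31.0-fold lower in the same comparisons, and Ctsf 4.20-fold and 3.83-fold lower. In the edgeR additive test 3 of 12 rose and 2 fell with shRNA (beside 12.3% and 8.66% of tested genes). With stimulation 1 rose and 1 fell (beside 11.9% and 10.9%). Ctsc, which activates granule serine proteases, was the only one of the list at least 2-fold higher after Pam3Cys4, 2.61-fold with shRNA and 4.13-fold without. That is 1 of 11 measured with shRNA and 1 of 12 without, beside 6.3% and 7.07% of all measured genes. None was 2-fold lower, beside 3.53% and 6.51%.

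Most of the other metalloproteinases and inhibitors were below 5 CPM. Of 17 further MMP genes, at most 2 were measured in any comparison, Mmp10 and Mmp19, and Mmp19 was at the threshold, 2.004-fold higher with shRNA in unstimulated cells. Among 28 ADAM and other ADAMTS genes 6 were measured. With shRNA none of them was 2-fold higher or lower after Pam3Cys4, beside 9.0% and 5.58% of all measured genes. The same held in unstimulated cells, beside 7.0% and 4.82%. Adamts1 was 512-fold and 906-fold higher in these comparisons. Adamts10 was lower in stimulated than in unstimulated cells, by 2.03-fold with shRNA and 2.28-fold without. None of the 7 other metalloproteinase inhibitors was measured, and Timp3 had 0 counts in all 4 libraries. Of 16 other serine protease inhibitors, Wfdc17, which like Slpi belongs to the WAP family, had a stimulation fold of 4.91 with shRNA and 13.5 without, and after Pam3Cys4 it was 4.56-fold lower with shRNA than without, where Serpinb6b was 8.81-fold higher. Furin, which cleaves the propeptide of Mmp14, had a stimulation fold of 2.11 with shRNA and 2.88 without, and St14, matriptase, was lower with shRNA, 2.35-fold after Pam3Cys4 and 2.51-fold unstimulated. No cystatin or stefin of 9 reached 2-fold in any comparison, where at most 3 were measured. The share of all measured genes called in a direction was 3.53% to 9.0% over these comparisons. In the edgeR additive test with stimulation, 0 of 1 other MMP, 1 of 6 ADAM and ADAMTS genes, 2 of 4 serine protease inhibitors, 1 of 3 serine proteases and convertases and 0 of 3 cystatins rose, and 0, 2, 0, 1 and 1 fell. With shRNA 0, 1, 0, 1 and 0 rose, and 0, 0, 0, 1 and 1 fell. Of all tested genes, 11.9% rose and 10.9% fell with stimulation, and 12.3% rose and 8.66% fell with shRNA.

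The last list holds matrix proteins and their receptors, of which 14 of 26 genes were measured between shRNA states. After Pam3Cys4, 6 were higher and 3 lower with shRNA (beside 9.0% and 5.58% of all measured genes), with a median log2 ratio of 0.56 against 0.05 for all. In unstimulated cells 4 were higher and 2 lower (beside 7.0% and 4.82%), with a median of 0.38 against 0.02. Of 13 measured for stimulation, 3 were higher in cells with shRNA (beside 6.3%) and 6 in cells without (beside 7.07%), and none was lower (beside 3.53% and 6.51%). In the edgeR additive test 6 of 14 rose and 3 fell with shRNA (beside 12.3% and 8.66% of tested genes). With stimulation 4 rose and 1 fell (beside 11.9% and 10.9%). Hpse, heparanase, which cuts heparan sulfate chains, had 720 and 1171 counts with shRNA (Pam3Cys4, unstimulated) against 8 and 19 without, which is higher with shRNA by 82.8-fold after Pam3Cys4 and 48.2-fold unstimulated. The heparan sulfate proteoglycan gene Sdc3 was 8.38-fold higher with shRNA after Pam3Cys4 and 7.23-fold higher unstimulated. Thbs1, thrombospondin-1, was 2.73-fold and 8.52-fold higher in the same comparisons. Spp1, osteopontin, which several MMPs cleave, was 4.04-fold and 2.43-fold lower, and Itgb3, an integrin chain that binds it, 18.7-fold and 10.7-fold lower. Itga5, the fibronectin receptor chain, had a stimulation fold of 6.15 with shRNA and 4.01 without.

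**Figure D5:**
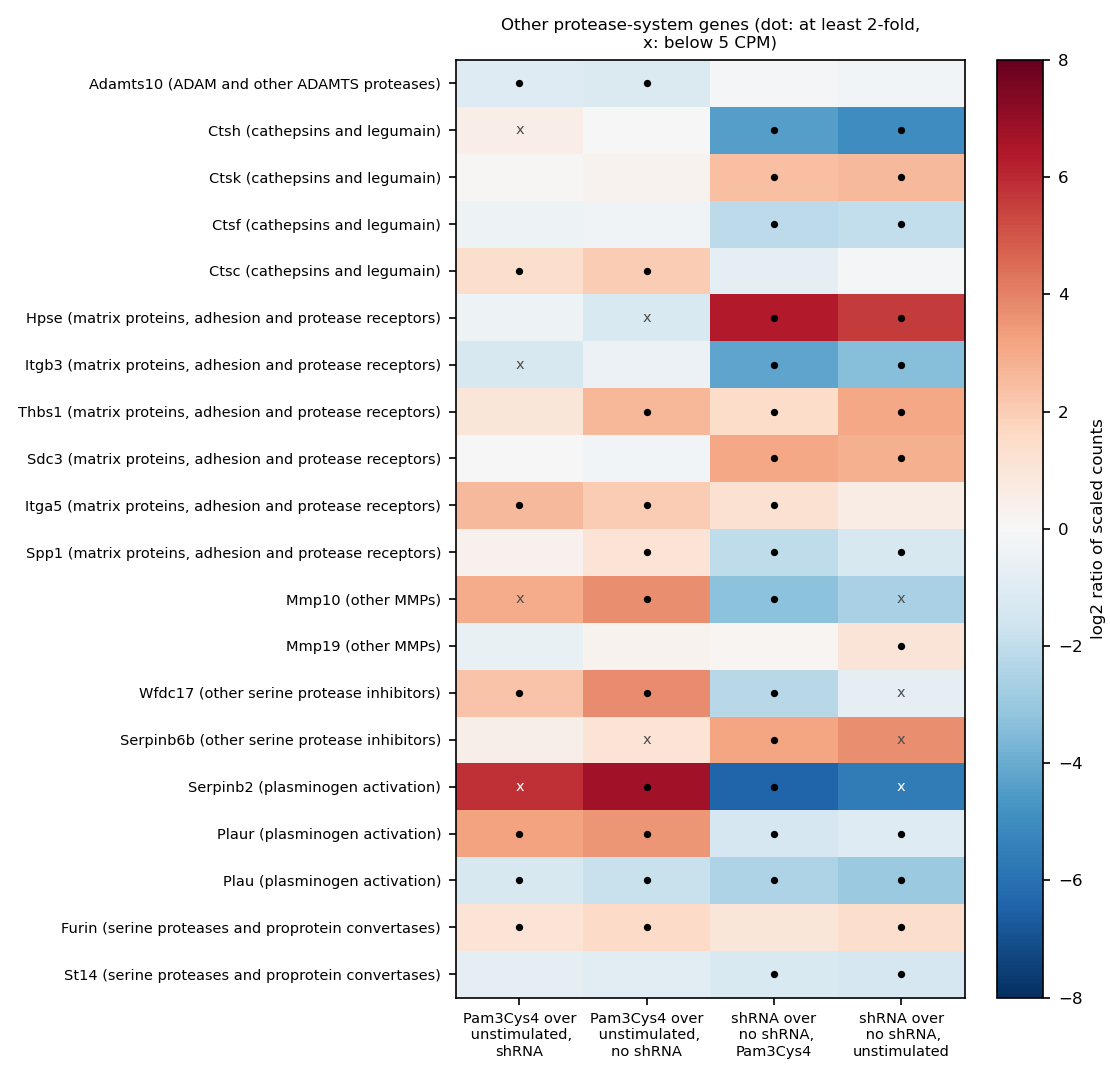
Log2 ratio of scaled counts in the 4 comparisons for other protease-system genes, chosen as those with the largest called ratios of each list; red is higher and blue lower, dots mark genes at least 2-fold apart and x marks genes below 5 CPM in both libraries of a pair. Plaur is high in both stimulation columns and low in both shRNA columns, Plau is low in all 4 columns, and Hpse and Sdc3 are high in both shRNA columns (8.38-fold and 7.23-fold for Sdc3).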

How the data were processed

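Libraries were prepared with Illumina's mRNA kit and sequenced with reads of 50 bp, per the labels' protocols. The submitters' processing notes name CASAVA 1.8, TopHat, HTSeq and NCBIM37; the versions of the aligner and counter, strandedness and the annotation release were not given in the sources used here. What the authors deposited are raw HTSeq counts, 1 table per library with 37681 gene IDs, of which 32661 had a symbol in GENCODE vM21. Totals naming no gene (32.5 to 34.4% of each table, mostly alignments to several places) were left out, so genes with close copies are undercounted. Names, exon lengths and overlaps (GENCODE vM21), and gene order and promoters (RefSeq), are of GRCm38, another build than that of the counts.

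TMM factors came from edgeR 4.0.16 in R 4.3.3 (0.924 with shRNA and Pam3Cys4, 1.01 with shRNA unstimulated, 0.972 without shRNA and with Pam3Cys4, 1.10 without shRNA unstimulated). Ratios of scaled counts have exact 95% conditional binomial intervals, for counting error only. A gene was measured at 5 CPM in the higher library and called at 2-fold with an interval off 1; 0 counts took a floor of 3 per library. Ratios of stimulation ratios needed 10 counts in every library and a highest level of 5 CPM, and used the delta method. The additive edgeR quasi-likelihood test (shRNA and stimulation, genes with 5 CPM in at least 2 libraries, adjusted p threshold 0.05) had 1 residual and 3.76 prior degrees of freedom. It was tested on simulated data. Alternatives were library totals, DESeq2 1.42.0 size factors and model, other filters, folds and floors.

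The genes and lists were chosen with earlier results of these data known. Named were all 10 genes, the list members called in any pair with the largest ratios (4 per list, or 6 where 10 or more were called), up to 3 nearest profiles, and the top markers; some that this rule would name are not reported here. Marker genes at 0, chromosome neighbours, Timp3 and the definition of genes read in 1 shRNA state were chosen after values were seen.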

Additional observations from a re-analysis of the deposited data

Results flagged for a closer look

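The genes looked at were the 10 genes, the named genes of the protease-system lists and Cd40, with cell markers and nearest profiles left out. Of those reported here, 3 genes were measured in both states and had log2 ratios of opposite sign, each with a counting interval off 0. Among the markers left out, Fcgr1 did so too, with a log2 stimulation ratio of 1.13 with shRNA and -0.37 without. In each case the difference was not tested. The log2 stimulation ratio of Mmp19, a matrix metalloproteinase outside the chromosome 9 cluster, was -0.57 with shRNA and 0.27 without. That of Sdc3 was 0.02 with shRNA and -0.20 without. The value with shRNA equals the median of all measured genes in that comparison (0.02), which library totals as scaling move to -0.12. The sign of Sdc3 with shRNA therefore rests on the choice of scaling. The log2 ratio of shRNA over no shRNA for Cd40, a neighbour of Mmp9, was 1.75 after Pam3Cys4 and -1.34 in unstimulated cells. Only for Cd40, among Mmp19, Sdc3 and Cd40, did both ratios reach 2-fold.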

How the results depend on the processing

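Of 60 recomputed counts of called genes among the 10, 52 stayed within 1.5 times the reported count, and of 90 recomputed ratios of single genes 85 moved by less than their counting interval or kept their call. No called ratio changed sign; with library totals as scaling 2 uncalled log2 stimulation ratios did, within their intervals, that of Slpi with shRNA (-0.0038 in place of 0.13) and that of Timp1 without (-0.13 in place of 0.05). With no filter on low counts, genes higher after Pam3Cys4 with shRNA numbered 6 in place of 3, Mmp3, Mmp8 and Mmp14 being added, and genes lower with shRNA in unstimulated cells 3 in place of 1. A filter of 1 CPM made that last count 2. A fold of 4 left 0 in place of 1 gene lower after Pam3Cys4 with shRNA, and 1 in place of 2 genes higher with shRNA, both after Pam3Cys4 and in unstimulated cells. DESeq2 with the same design gave 3 in place of 4 genes that rose with stimulation, without Slpi, and, as did library totals, 3 in place of 2 that fell with shRNA, with Mmp12. With a filter of 1 CPM in 1 library the additive test gave 7 in place of 4 genes that rose with stimulation and 4 in place of 2 that fell with shRNA. Scaling by library totals moved 5 uncalled log2 ratios past their intervals, by at most 0.179 for any of the 10 genes, and moved the median of all measured genes to -0.12 and -0.19 for stimulation (with shRNA, without). No paired analysis was possible because each group had 1 library and the labels carry no replicate numbers. Leaving out 1 library would remove its group and the only residual degree of freedom of the additive test, so it was not run. Depth limits Timp1, Mmp14 and the unstimulated levels of Mmp3 and Mmp8, which rest on at most 75 counts. It also limits the size of the largest shRNA folds, which have low counts on 1 side. These are Slpi with shRNA (9 and 10 counts after Pam3Cys4 and unstimulated) and Adamts1 without (9 and 4). After Pam3Cys4 with shRNA, Mmp3 had 28 counts and Mmp8 27, and Mmp13 had 53 in unstimulated cells with shRNA.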
